A study of Mus musculus with 112 samples.

Results

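Liver was compared with prefrontal cortex (PFC) in mice that received no drug. The comparison used 9 liver arrays and 10 PFC arrays of the saline group, chosen by tissue and treatment with 1 liver array left out for its measured values, out of 112 arrays in 12 groups. The series measured RNA of liver, PFC and amygdala in male C57BL/6J mice on Illumina bead arrays, after 8 days of oral dosing, with 10 mice planned per treatment. The mice of the comparison were given saline by mouth; the drugs were suspended in saline with drops of Tween-80, and the labels do not say whether the control saline held Tween-80. The drug groups used below for detection only received fenofibrate at 150 mg/kg, tesaglitazar at 1.5 mg/kg or bezafibrate at 75 mg/kg; these are agonists of the peroxisome proliferator-activated receptors (PPARs). Each array is a bulk sample of a tissue piece, so fewer cells of a type and less RNA per cell cannot be told apart. The labels do not say that an array number stands for a mouse, and p-values measure the spread between these arrays.

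The liver labelled saline 4 was left out. On an axis that placed the mean of the other saline livers at 0 and the mean of the tesaglitazar livers at 1, it lay at 0.99, while the other saline livers lay between -0.02 and 0.05. The liver labelled tesaglitazar 6 lay at 0.02 on that axis and was left out of the tesaglitazar group. The share of the 45281 probes detected above the negative controls (detection p under 0.05) was 39.6 to 41.5% on liver arrays and 44.0 to 48.8% on PFC arrays. Correlations of log2 levels had a median of 0.991 between liver arrays, 0.994 between PFC arrays and 0.686 between a liver and a PFC array.

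Liver is made up mostly of hepatocytes, which secrete the proteins of blood plasma, clear ammonia and drugs, make bile acids and release glucose. PFC holds excitatory projection neurons and inhibitory interneurons among astrocytes, oligodendrocytes, microglia and vessels. The labels of both tissues were checked against defining markers. All 6 tested hepatocyte markers were higher in liver, where their summed level on the linear scale was 59211 to 65359 per array, against 117.2 to 147.7 in PFC. All 6 tested neuron markers were lower in liver, with sums of 371 to 519 in liver arrays and 42478 to 46923 in PFC arrays. The probes for the neuronal genes Snap25 and Nefl and for the hepatic gene Fabp1 were detected on no array of either tissue and give no information on those genes.

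Genes with a probe detected in 1 tissue only differed in the sequence just upstream of their start. Other probes of these genes could be detected in both tissues, as for Mbp, so the genes need not be restricted to 1 tissue. RefSeq promoter windows (GRCm38.p6) were found for 459 of the 587 genes with a probe detected on every liver array and no PFC array, and for 1207 of the 1576 genes with a probe detected on every PFC array and no liver array. In the 250 bases before the start, the liver group had a median of 4 CG dinucleotides and the PFC group a median of 12, while genes detected on all 19 arrays had a median of 16 and all promoters listed had a median of 6. Few CG dinucleotides (at most 3) were present in 42.9% of the 571 liver promoters, 14.7% of the 1677 PFC promoters, 8.31% of promoters of genes detected on all 19 arrays and 37.8% of all promoters. The 150 bases before the start are shown, with every CG in capitals to let the density be seen, for 3 of the 5 genes with the highest levels among the probes detected in each tissue only; Kng1 and Mat1a in liver and Mbp and Sult4a1 in PFC belong to the same 5 and are not shown here. Each runs 5′ to 3′ on the strand of its gene.
Serpina1b, liver, chr12:103738190-103738339, minus strand: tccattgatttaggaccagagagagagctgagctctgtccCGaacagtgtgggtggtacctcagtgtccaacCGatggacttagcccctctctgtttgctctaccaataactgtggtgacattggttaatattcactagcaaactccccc
Serpina1e, liver, chr12:103956898-103957047, minus strand: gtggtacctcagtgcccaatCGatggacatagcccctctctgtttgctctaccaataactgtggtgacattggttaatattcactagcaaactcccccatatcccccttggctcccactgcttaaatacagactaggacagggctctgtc
Azgp1, liver, chr5:137981371-137981520, plus strand: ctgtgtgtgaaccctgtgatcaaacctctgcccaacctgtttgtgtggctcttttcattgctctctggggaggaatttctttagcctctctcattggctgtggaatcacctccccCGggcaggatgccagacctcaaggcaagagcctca
Rasgrf1, PFC, chr9:89909625-89909774, plus strand: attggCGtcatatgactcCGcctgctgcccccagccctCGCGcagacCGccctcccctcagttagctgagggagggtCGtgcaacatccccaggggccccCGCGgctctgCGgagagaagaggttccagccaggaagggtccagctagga
Sh3gl2, PFC, chr4:85205306-85205455, plus strand: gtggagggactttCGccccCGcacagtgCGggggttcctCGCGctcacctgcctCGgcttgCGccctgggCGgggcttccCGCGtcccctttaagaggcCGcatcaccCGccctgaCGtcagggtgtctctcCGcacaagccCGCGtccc
Diras2, PFC, chr13:52530837-52530986, minus strand: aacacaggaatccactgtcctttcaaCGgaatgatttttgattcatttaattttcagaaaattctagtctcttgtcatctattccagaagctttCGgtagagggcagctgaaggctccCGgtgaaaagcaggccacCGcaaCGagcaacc

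The 150 printed bases held 2, 1 and 1 CG dinucleotides for Serpina1b, Serpina1e and Azgp1, against 9, 16 and 5 for Rasgrf1, Sh3gl2 and Diras2. Short motifs were searched on both strands of the 250 bases, except that the TATAAA shares below count the strand of the gene only. GTTAAT, part of the site of the hepatocyte factor HNF1, was found in 11.9% of liver promoters, 4.65% of PFC promoters, 3.71% of promoters of genes detected on all 19 arrays and 6.43% of all promoters; the Serpina1b and Serpina1e windows each hold it once. CAAAGTCCA, a core of the HNF4 site, was found in 2.45%, 0.298%, 0.29% and 0.384% of the same groups. TATAAA 16 to 40 bases before the start was found in 5.60% of liver promoters and 1.55% of PFC promoters, against 1.99% of all promoters. CCGCCC, the core letters of the GC box, was in 30.1% of liver promoters, 48.5% of PFC promoters, 60.01% of promoters of genes detected on all 19 arrays and 32.7% of all promoters. TTCAGCACC, from the site of the neuronal repressor REST, was found in 0 of 571 liver promoters, 0.417% of PFC promoters, 0.316% of promoters of genes detected on all 19 arrays and 0.301% of all promoters. TGACGTCA, the cyclic AMP response element, was found in 0.876%, 2.33%, 2.74% and 1.55% of the same groups. No motif searched contains another, although matches may overlap, and a match is a description of letters only.

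Of 21890 probes detected on at least 9 of the 19 arrays, 19173 (87.6%) differed between liver and PFC at an adjusted p under 0.05 (limma, two-sided, Benjamini-Hochberg). Higher levels in liver were called for 9685 probes (44.2%) and lower levels for 9488 (43.3%). A difference of at least 2-fold was reached by 9995 probes (45.7%). At least 64-fold separated 330 probes that were higher and 292 that were lower in liver. The arrays of the 2 tissues did not overlap for 13892 probes (63.5%). The absolute difference had a median of 0.89 on the log2 scale, with a median standard error of 0.08. With liver 4 kept as labelled, 19164 probes were called and 9952 were at least 2-fold apart.

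The balance of directions rests on how liver and PFC are put on a common scale, and why the scalings differ was not tested. With quantile normalisation over the 19 arrays 50.5% of called probes were higher in liver, and the median of all differences was 0.03. Median centring gave 60.6% and a median of 0.30, normalisation within each tissue gave 29.4% and -0.53, and the authors' processed values gave 20.1% and -0.31. Of the 19173 calls, 512, 1628 and 4304 were called in the opposite direction under these scalings, in that order. The same direction was called for 17289, 15052 and 13530. The remaining calls were lost, whichever way they pointed. Differences under about 1 on the log2 scale are therefore given below with the scaling that turns them. A difference is always liver minus PFC, as a log2 value with its standard error. Larger differences changed in size. The median of the plasma protein genes, 8.57 here, was 9.49 with median centring and 5.88 in the authors' processed values. The median of the neuron markers, -7.46 here, was -6.66 and -5.14. Normalisation within each tissue gave 8.67 and -7.50. With no background correction these medians were 6.15 and -5.43. Fold sizes and bounds below hold for quantile normalisation over the 19 arrays after background correction.

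**Figure D1:**
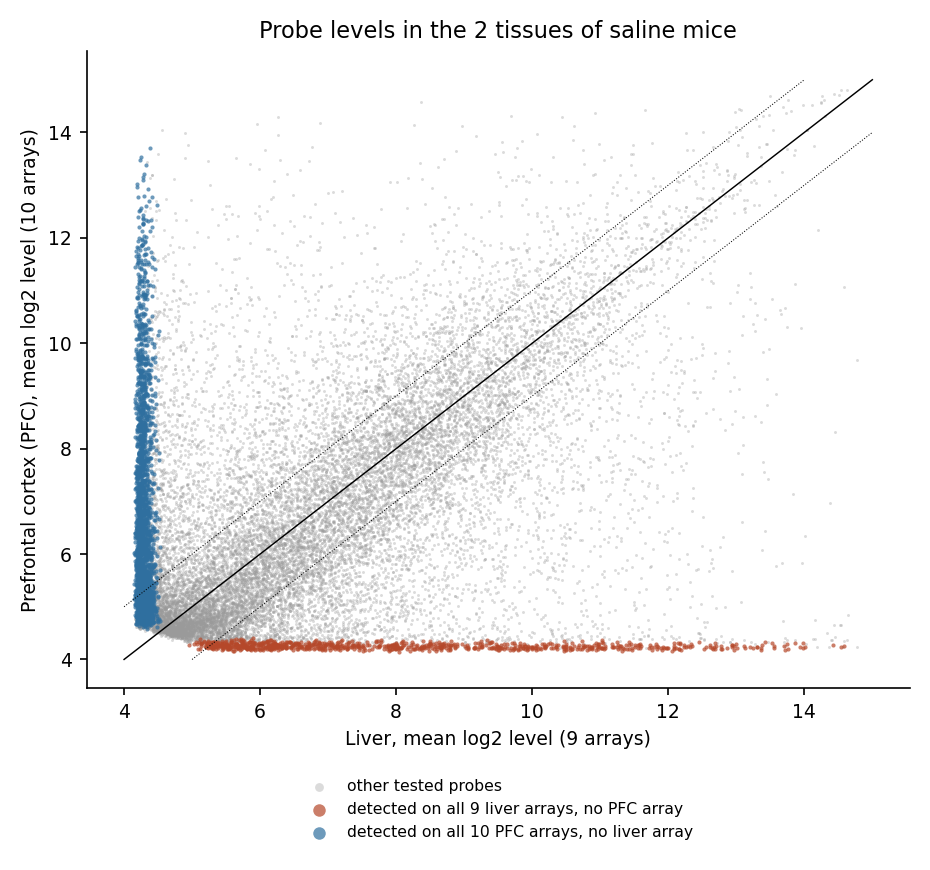
Mean log2 level of each of the 21890 tested probes in liver (x axis, 9 arrays) and PFC (y axis, 10 arrays). The solid line marks equal levels, the dotted lines mark 2-fold differences, red points are the 854 probes detected on every liver array and no PFC array, and blue points are the 2443 probes detected on every PFC array and no liver array. Red points run along the floor of the PFC axis to levels above 14, and blue points along the floor of the liver axis to levels near 14.

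The probes with the largest differences above PFC belonged to secreted liver proteins and liver enzymes. Serpina1b, an alpha-1-antitrypsin gene, read 14.64, 14.80 and 14.84 in liver (lowest, median and highest array, as in every set of 3 levels below), against 4.12, 4.21 and 4.53 in PFC. The tissues were far apart, with a difference of 10.54 ± 0.06 (adjusted p = 6.1e-35). Its relatives Serpina1d and Serpina1c differed by 10.33 and 10.25, and Serpina1e, detected on no PFC array, was at least 1059.9-fold higher in liver; these copies are nearly identical, probes may read several of them, and which copy was measured is uncertain. Kng1 encodes kininogen, the precursor of bradykinin. It read 14.27, 14.40 and 14.54 in liver and 4.21, 4.29 and 4.33 in PFC, where no array detected it. For a probe detected on no array of a tissue, only a bound can be given, measured from the lowest detected signal, and Kng1 was at least 974.6-fold higher in liver (adjusted p = 1.5e-35). Ambp, the precursor of alpha-1-microglobulin, differed by 10.13, Apoc3 of triglyceride-rich lipoproteins by 10.03, the ethanol-oxidising enzyme Cyp2e1 by 10.02 and the fibrinogen chain Fga by 9.94. Mup3, a major urinary protein with many near copies, differed by 10.03. Azgp1, a secreted zinc-binding glycoprotein, was at least 734-fold higher, and Mat1a, the liver enzyme that makes S-adenosylmethionine, at least 720.1-fold higher in liver.

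The largest differences in the other direction belonged to neuronal genes and to myelin. Kif1a, the motor that carries synaptic vesicle precursors along axons, read 4.28, 4.58 and 4.90 in liver and 13.95, 14.07 and 14.12 in PFC. The 2 sets were far apart, with a difference of -9.49 ± 0.07 (adjusted p = 2.1e-32), and 2 of 9 liver arrays detected the probe. Mbp, myelin basic protein, read 4.28, 4.36 and 4.51 in liver and 13.35, 13.71 and 14.03 in PFC. No liver array detected this probe, and it was at least 509-fold lower in liver (adjusted p = 9.5e-32). The other tested Mbp probes were also called lower, with smaller differences down to -0.81. Among them, a probe detected on 7 of 9 liver arrays differed by -3.22 ± 0.10. Sult4a1, a brain sulfotransferase-like protein, was at least 452-fold lower in liver, and Rasgrf1, a calcium-responsive activator of Ras, at least 433-fold lower. Sh3gl2, the endophilin that bends membrane during vesicle recycling, was at least 408-fold lower, the small GTPase Diras2 at least 357-fold lower and neuron-specific enolase, Eno2, at least 347-fold lower. Cplx1 of the vesicle fusion machinery, Zcchc18 and the neuropeptide-processing enzyme Cpe differed by -9.11, -9.09 and -9.09.

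Lists of genes for each function were read with 1 probe per gene. Over all 11657 genes tested, 4945 (42.4%) were higher in liver, 5417 (46.5%) were lower and 1295 were not called, with a median difference of -0.06 (-0.04 with genes undetected in 1 tissue set at their bound). The liver lists and the neuronal lists lay at opposite ends of this range, as the plot of differences by list shows.

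**Figure D2:**
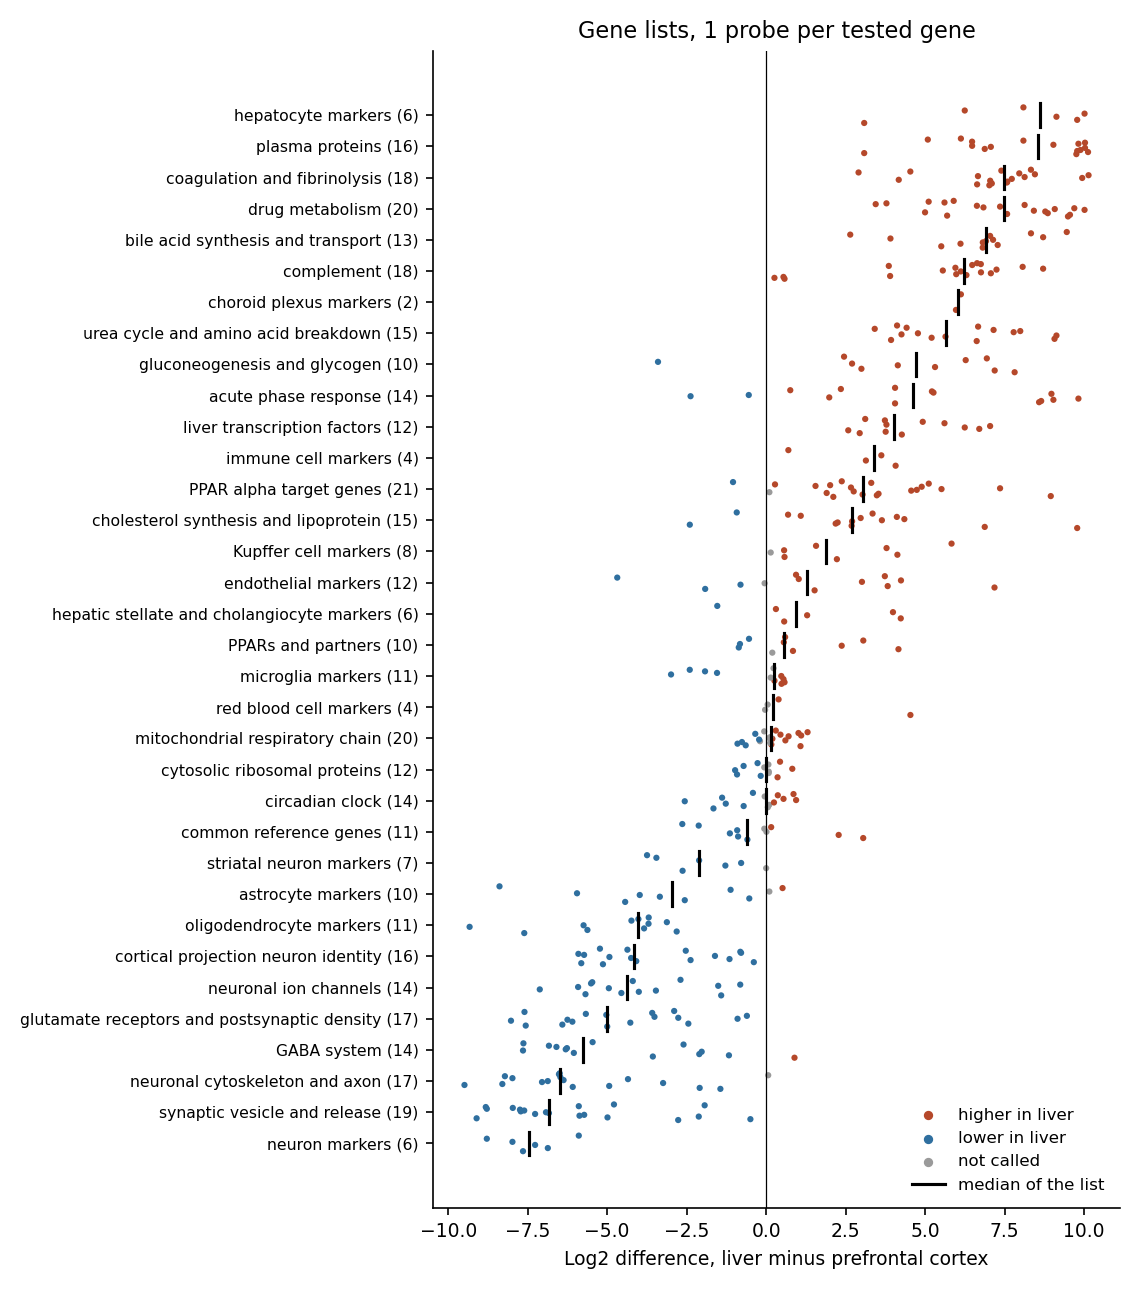
Log2 difference (liver minus PFC, x axis) of every tested gene in the 34 gene lists, 1 row per list with the number of genes tested in parentheses. Red points were higher in liver, blue points lower and grey points not called, and the bar marks the list median. Lists of hepatic function sit to the right with medians up to 8.61 (8.50 at the bound), and neuronal lists sit to the left with medians down to -7.46 (-6.99 at the bound).

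All 16 tested plasma protein genes were higher in liver, with a median difference of 8.57 (8.31 at the bound). Apoa1, the main protein of high-density lipoprotein, read 14.18, 14.50 and 14.59 in liver and 4.32, 4.64 and 5.17 in PFC. The difference was 9.79 ± 0.09 (adjusted p = 2.4e-31), although 8 of 10 PFC arrays detected the probe. Trf, the iron carrier transferrin, read 14.70, 14.76 and 14.84 in liver against 9.22, 9.58 and 10.34 in PFC. The arrays did not overlap, and the difference was 5.09 ± 0.10. Alb, albumin, read only 6.35, 7.34 and 8.25 in liver and was detected on no PFC array, which gives a bound of at least 6.91-fold; levels of different probes cannot be set against each other. Fgb, a fibrinogen chain, was detected on 8 of 9 liver arrays and no PFC array, and was not tested.

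All 18 tested genes of coagulation and fibrinolysis were higher in liver, with a median of 7.49 (7.33 at the bound). The list ran from Pros1, the vitamin K-dependent protein S, at 2.91 ± 0.07 to Kng1. Pros1 was detected on all 19 arrays, with 9.62, 9.79 and 10.12 in liver and 6.73, 6.95 and 7.10 in PFC. The prothrombin gene F2 differed by 7.59, F9 by 7.73, and Plg, the precursor of plasmin, was at least 298-fold higher in liver. The 18 tested complement genes were also all called higher, with a median of 6.21. C9, which forms the membrane pore, was at least 351-fold higher in liver. The C1q chains, which macrophages and microglia make, were the exception in size. C1qb read 8.90, 9.25 and 9.42 in liver and 8.67, 8.89 and 9.38 in PFC, sets that overlap, with a difference of 0.26 ± 0.09 (adjusted p = 0.0069). With liver 4 kept it was 0.15 (adjusted p = 0.275). C1qc at 0.55 and C1qa at 0.58 were higher as well, but the direction of all 3 differences turned with normalisation within each tissue (-0.12 to -0.37) and in the authors' processed values (-0.09 to -0.29). C1qa and C1qb were then called lower in liver, and C1qc was not called (adjusted p = 0.215 and 0.223).

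All 15 tested genes of the urea cycle and of amino acid breakdown were higher in liver, with a median of 5.64. Cps1, the mitochondrial enzyme that starts the urea cycle, read 13.28, 13.49 and 13.70 in liver and 4.22, 4.29 and 4.65 in PFC (9.13 ± 0.07, adjusted p = 1.2e-32). Arg1, arginase, the last step of the cycle, was detected on no PFC array and was at least 451-fold higher in liver. Ass1 and Asl, the steps between, were detected on every PFC array and differed by 5.64 and 5.21. Fah, which ends tyrosine breakdown, read 12.84, 12.97 and 13.12 in liver and 8.59, 8.72 and 8.82 in PFC. It was among the genes of the list with a PFC signal well above the floor, and the sets did not overlap.

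Bile acid genes were higher in liver for all 13 tested, with a median of 6.92 (6.81 at the bound). Cyp7a1, the rate-limiting enzyme of bile acid synthesis, read 10.55, 11.34 and 11.74 in liver and was detected on no PFC array, at least 116-fold apart. The organic anion transporter Slco1b2 was at least 614-fold higher in liver, the bile salt pump Abcb11 at least 93.3-fold and the bile acid receptor Nr1h4 at least 112-fold. Cyp7b1, an oxysterol hydroxylase, had a clear level in both tissues, with 11.73, 12.88 and 13.08 in liver and 8.50, 8.73 and 9.10 in PFC (3.91 ± 0.13). All 20 tested genes of drug metabolism were higher, with a median of 7.47 (7.22 at the bound). Cyp3a11 was at least 697-fold higher in liver and the carboxylesterase Ces1c at least 616-fold. Gstp1, a glutathione transferase, was the gene with the smallest difference of that list, with 13.34, 13.87 and 14.09 in liver and 9.96, 10.36 and 10.58 in PFC (3.45 ± 0.10).

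Of 10 tested genes of glucose output and glycogen, 9 were higher in liver and 1 was lower. G6pc, which releases free glucose, read 10.63, 11.80 and 12.04 in liver and 4.25, 4.40 and 4.70 in PFC (7.19 ± 0.13, adjusted p = 7.4e-25). Fbp1, a gluconeogenic phosphatase, was at least 200.8-fold higher in liver, and Pck1, the enzyme that commits carbon to glucose, at least 14.4-fold, with levels of 7.27 to 9.21 across livers. The exception, Pygb, is the brain form of glycogen phosphorylase. All 12 tested liver transcription factors were higher, with a median of 4.03 (4.00 at the bound). Hnf4a differed by 6.25 ± 0.09 and Cebpa by 4.27, Foxa3 was at least 89.1-fold higher in liver and Foxa2 at least 4.99-fold.

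The PPARs, the receptors of the drugs that the study gave, differed in direction between the tissues. Ppara, which drives fatty acid oxidation, read 7.91, 8.41 and 8.88 in liver and 4.16, 4.22 and 4.41 in PFC. Every liver array and no PFC array detected it, and it was at least 15.2-fold higher in liver (adjusted p = 2.8e-21). Pparg, known for fat storage in adipocytes, read 8.197, 8.51 and 9.10 in liver and 5.57, 6.26 and 6.47 in PFC. The sets did not overlap (2.38 ± 0.11, adjusted p = 3.1e-16), and another Pparg probe was detected on every liver array and no PFC array and was called higher (adjusted p = 1.1e-14). Ppard, the broadly expressed member, went the other way, with 7.19, 7.53 and 7.74 in liver and 8.13, 8.38 and 8.63 in PFC. It was lower in liver without overlap (-0.86 ± 0.08, adjusted p = 3.0e-10), and lower under every scaling tried (-0.82 to -1.65).

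Among the partners of the PPARs, Rxra, the retinoid receptor they pair with, read 7.47, 7.85 and 7.99 in liver and 4.50, 4.70 and 4.85 in PFC (3.06 ± 0.07, adjusted p = 1.1e-22). Rxrb was lower in liver (-0.54 ± 0.08), under every scaling tried. Rxrg was called higher (0.60 ± 0.14) but read -0.14 with normalisation within each tissue and -0.21 in the authors' processed values. The coactivator Ppargc1a, a regulator of mitochondrial genes, was lower in liver (-0.82 ± 0.14, adjusted p = 4.8e-06), with levels of 7.37, 7.94 and 8.67 in liver and 8.46, 8.71 and 9.17 in PFC. Ppargc1b was called higher (0.56 ± 0.07) and Ncoa2 higher (0.85 ± 0.08), and in the authors' processed values they read -0.08 and -0.13. Med1 was not called (0.20 ± 0.11, adjusted p = 0.11), and Ncoa1 and Nrip1 were too rarely detected to test. In all, 6 of 10 tested genes were higher, 3 lower and 1 not called (median 0.58), but 4 were higher and 4 lower with normalisation within each tissue (median -0.12), and 3 higher and 6 lower in the authors' processed values (median -0.17).

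**Figure D3:**
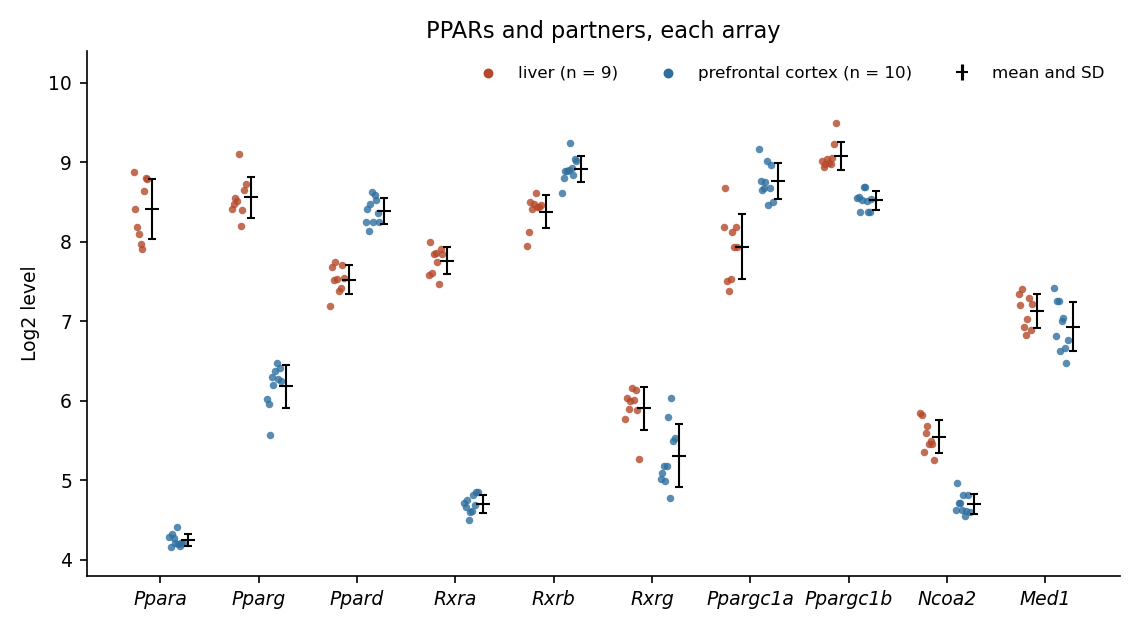
Log2 level of 10 PPAR and partner genes on each liver array (left of each pair) and each PFC array (right), with mean and SD. Ppara, Pparg and Rxra stand higher in liver without overlap, and Ppard stands lower in liver, between 7.19 and 7.74 against 8.13 to 8.63 in PFC.

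Of 21 tested target genes of PPAR alpha, 19 were higher in liver, 1 was lower and 1 was not called, against 42.4% and 46.5% of all genes, and the list median was 3.04. Acaa1b, a peroxisomal thiolase, read 13.45, 13.70 and 14.04 in liver and 4.56, 4.69 and 5.00 in PFC (8.96 ± 0.08, adjusted p = 7.6e-32). Cyp4a14, a fatty acid hydroxylase, was at least 136.8-fold higher in liver, and Creb3l3, a fasting-responsive factor, at least 40.4-fold. The lipid droplet coat Plin2 differed by 5.12 and the mitochondrial carnitine enzyme Cpt2 by 4.74. Enzymes of mitochondrial beta oxidation had clear levels in both tissues, and Acadvl, Acadl, Acadm, Hadhb and Hadha differed by 3.54, 3.48, 3.04, 2.01 and 1.55. Slc27a1, a fatty acid transporter of muscle, fat and brain, was lower in liver (-1.04 ± 0.11), but -0.66 with an adjusted p of 0.0736 when liver 4 was kept. Pdk4, which holds back glucose oxidation, read 5.86, 6.42 and 6.94 in liver and 5.86, 6.10 and 6.37 in PFC. These sets overlap, and its call (0.28 ± 0.12, adjusted p = 0.037) was lost without any of several arrays, such as liver 2 (0.21, adjusted p = 0.0918), and turned to -0.54 with normalisation within each tissue and -0.32 in the authors' processed values. Acot2 was not called (0.10, adjusted p = 0.42). Cpt1a and Fgf21, on 5 and 8 liver arrays and no PFC array, were not tested.

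Genes of synaptic vesicles and release were lower in liver for all 19 tested, with a median of -6.83 (-6.37 at the bound). Syp, a vesicle membrane protein, read 4.43, 4.96 and 5.35 in liver and 13.63, 13.80 and 13.87 in PFC (-8.82 ± 0.11, adjusted p = 9.3e-29). Syn1, which tethers vesicles, differed by -8.79 and the syntaxin Stx1a by -7.72. Slc17a7, which loads vesicles with glutamate, was detected on no liver array and was at least 116-fold lower in liver. Some members had a liver signal on all 9 arrays. Syt1, the calcium sensor of release, read 7.91, 8.31 and 8.55 in liver and 14.06, 14.15 and 14.31 in PFC, and the fusion protein Vamp2 differed by -4.79. Bsn, a scaffold of the active zone, was undetected in liver, at least 1.03-fold lower there, and its difference turned direction with median centring (0.13).

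All 17 tested genes of glutamate receptors and the postsynaptic density were lower in liver, with a median of -5.0 (-4.53 at the bound). Gria2, the AMPA receptor subunit that limits calcium entry, read 4.26, 4.47 and 5.17 in liver and 12.32, 12.57 and 12.71 in PFC (-8.03 ± 0.09, adjusted p = 4.5e-29). Camk2a and Camk2b, subunits of the kinase of synaptic plasticity, differed by -7.56 and -6.41, and Nrgn, neurogranin, was at least 139.5-fold lower in liver. Arc, an activity-regulated gene, ranged more widely over PFC arrays, with 7.16, 9.52 and 10.66, against 4.19, 4.22 and 4.45 in liver. Every liver array lay below every PFC array. Grin2a, undetected in liver, was at least 1.15-fold lower there, and its call was lost with median centring (adjusted p = 0.914).

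In the GABA system 13 of 14 tested genes were lower in liver and 1 was higher, with a median of -5.75 (-5.28 at the bound). Gad1, which makes GABA, was detected on no liver array and read 11.08, 11.83 and 12.35 in PFC, at least 138-fold lower in liver. The interneuron genes Sst, Pvalb, Npy and Vip were likewise undetected in liver, at least 149.4-fold, 73.5-fold, 57.2-fold and 31.4-fold lower. Abat, the enzyme that breaks GABA down, read 11.37, 11.54 and 12.02 in liver and 10.25, 10.77 and 10.96 in PFC. It was higher in liver without overlap (0.89 ± 0.09, adjusted p = 1.9e-09), also under every scaling tried (0.73 to 1.56).

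All 14 tested neuronal ion channel genes were lower in liver (median -4.37, or -3.85 at the bound). The potassium channel subunit Kcnab2 differed by -7.12 ± 0.08, the sodium channels Scn1a and Scn2a were at least 32.3-fold and 31.3-fold lower in liver, and Kcnq3 was at least 1.38-fold lower. Of 17 tested genes of neuronal cytoskeleton and axon, 16 were lower and 1 was not called, with a median of -6.47 (-6.11 at the bound). Thy1, a surface protein of neurons, read 4.83, 5.16 and 5.61 in liver and 13.34, 13.46 and 13.57 in PFC. Stmn2, a microtubule regulator of growing axons, was at least 186-fold lower in liver, and Map2 and Mapt, microtubule proteins of dendrites and axons, differed by -6.87 and -6.37. Tubb3, a neuronal tubulin, had a probe near the floor in both tissues (0.07, adjusted p = 0.57), which read 0.58 with median centring and -0.22 with normalisation within each tissue. All 16 tested genes of cortical projection neuron identity were lower in liver, with a median of -4.17 (-3.99 at the bound). Neurod2 was at least 46.9-fold lower in liver, the layer factors Tbr1 and Bcl11b at least 27.4-fold and 26.5-fold, Mef2c differed by -5.73 and Cux1, also made outside brain, by -0.39. Cux1 stayed lower under every scaling tried (-0.33 to -1.16).

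Oligodendrocyte markers were lower in liver for all 11 tested, with sums of 451 to 671 in liver arrays and 18988 to 31134 in PFC arrays. Cldn11, of the myelin tight junction, was at least 142-fold lower in liver, Sox10 at least 12.1-fold, and Cnp differed by -2.81. Of 10 tested astrocyte markers 8 were lower in liver, 1 was higher and 1 was not called. Slc1a3, a glutamate transporter, read 4.37, 4.68 and 5.03 in liver and 12.92, 13.13 and 13.27 in PFC (-8.39 ± 0.08). Gfap, the astrocyte filament, was at least 7.71-fold lower in liver. Slc1a2, the other main glutamate transporter of astrocytes, was higher in liver, with 9.52, 9.94 and 10.14 against 9.16, 9.41 and 9.67 in PFC. The sets overlap, and the difference of 0.52 ± 0.08 became -0.01 with normalisation within each tissue and 0.02 in the authors' processed values. The probes for Slc1a2 that differed by 1.16 and 2.03 were higher in liver as well. Glul, glutamine synthetase, which astrocytes and the hepatocytes around the central vein share, was not called (0.10 ± 0.17, adjusted p = 0.57).

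Microglia are the resident macrophages of brain and Kupffer cells those of liver, and the lists of markers mixed genes of each with genes common to both. Of 11 tested microglia markers, 5 were called higher in liver, 4 lower and 2 not. The 4 lower ones were genes known from microglia. Cx3cr1, the fractalkine receptor, read 4.78, 5.11 and 5.64 in liver and 7.49, 8.07 and 8.45 in PFC (-2.99 ± 0.12, adjusted p = 5.1e-18). Trem2, Tmem119 and P2ry12 differed by -2.40, -1.92 and -1.54. The genes that macrophages share, Csf1r at 0.14 and Tyrobp at 0.23, were not called, and the 5 higher genes differed by at most 0.58. Normalisation within each tissue left 0 higher, 9 lower and 2 not called. Summed over the list, levels were 1577 to 2541 in liver arrays and 1868 to 2269 in PFC arrays.

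Of 8 tested Kupffer cell markers 7 were higher in liver and 1 was not called, and with normalisation within each tissue 5 were higher and 2 lower. Vsig4, a complement receptor of tissue macrophages, read 9.78, 10.02 and 10.50 in liver and was detected on no PFC array, at least 47.3-fold apart. Clec4f, a lectin of Kupffer cells, was at least 14.8-fold higher in liver. The iron exporter Slc40a1, also made in hepatocytes, differed by 3.79, and the macrophage gene Adgre1 by 2.23 ± 0.20 with a wide range of 6.88 to 9.13 over liver arrays. Sums over the list were 5226 to 7493 in liver arrays and 699 to 891 in PFC arrays. Among 4 tested markers of other immune cells, Cd74 and H2-Aa of antigen presentation differed by 4.07 and 3.14 and lysozyme, Lyz2, by 3.62. The lymphocyte probes Cd8a, Cd4 and Ms4a1 were detected on at most 1 array, and Cd3e on 1 liver and 6 PFC arrays.

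Of 12 tested endothelial genes, 8 were higher in liver, 3 were lower and 1 was not called, against 7 higher and 4 lower with normalisation within each tissue and 6 higher and 5 lower in the authors' processed values. Clec4g and Stab2, of liver sinusoidal endothelium, differed by 7.19 ± 0.06 and 3.74 ± 0.07, and Oit3 was at least 15.7-fold higher in liver. Among the lower genes, Slco1c1, the thyroxine transporter of the blood-brain barrier, read 4.15, 4.18 and 4.23 in liver and 8.58, 8.88 and 9.06 in PFC, at least 17.7-fold lower in liver. Cldn5, a tight junction protein, read 6.56, 6.93 and 7.13 in liver and 8.50, 8.82 and 9.06 in PFC (-1.92 ± 0.09). Flt1, a receptor for vascular endothelial growth factor, was also lower (-0.80 ± 0.08). Cdh5 and Pecam1, common to endothelium, differed by 1.53 and 1.03.

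Of 6 tested genes of hepatic stellate cells and bile duct cells, 5 were higher in liver and 1 was lower, against 3 higher and 1 lower with normalisation within each tissue and 2 higher and 2 lower in the authors' processed values. Lrat, which stores retinol in stellate cells, was at least 13.3-fold higher in liver, and the matrix proteoglycan Dcn differed by 4.24 ± 0.12. Sox9, made in bile ducts and in astrocytes, was lower in liver (-1.54 ± 0.10). The bile duct keratins were rarely or never detected. Globins, from red blood cells in the vessels of both tissues, did not differ by the test, with Hba-a1 at -0.03 (adjusted p = 0.84) and Hbb-bt at 0.05 (adjusted p = 0.72); with median centring they read 0.92 and 1.08. Alas2, the first haem enzyme of red cell precursors, differed by 4.54 ± 0.15. Striatal neuron genes, a check on what the PFC pieces held, were detected on every PFC array for Drd1 (6.36, 7.0 and 7.72) and Tac1 (7.39, 8.02 and 8.61) and on no liver array; both are also known from cortical neurons.

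Several enzyme families have a liver form and a brain form, and pairs of forms were compared within families. Of 22 steps with at least 2 forms on the array, 9 had forms called in opposite directions. Some of the 22 held a form that was not tested. Over all genes tested, 42.4% were higher in liver and 46.5% lower, so opposite calls are frequent for any set of genes. The count is a description and was not tested against those shares. Glucose entry was one. Slc2a2, the low-affinity transporter of hepatocytes, read 10.67, 11.21 and 11.50 in liver and was undetected in PFC, at least 102.9-fold apart, while Slc2a3, the neuronal transporter, read 4.19, 4.55 and 5.11 in liver and 10.63, 10.73 and 10.92 in PFC (-6.14 ± 0.09). The last step of glycolysis showed the same split. Pklr, the liver pyruvate kinase, was at least 7.81-fold higher in liver, with 1 liver, number 2, at 6.11 and the others from 7.34 to 7.95. Pkm, the form of brain and muscle, read 6.47, 6.80 and 6.87 in liver and 12.16, 12.40 and 12.63 in PFC (-5.65 ± 0.07). For glycogen, the liver phosphorylase Pygl differed by 6.28 ± 0.06 and the brain form Pygb by -3.40 ± 0.09.

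**Figure D4:**
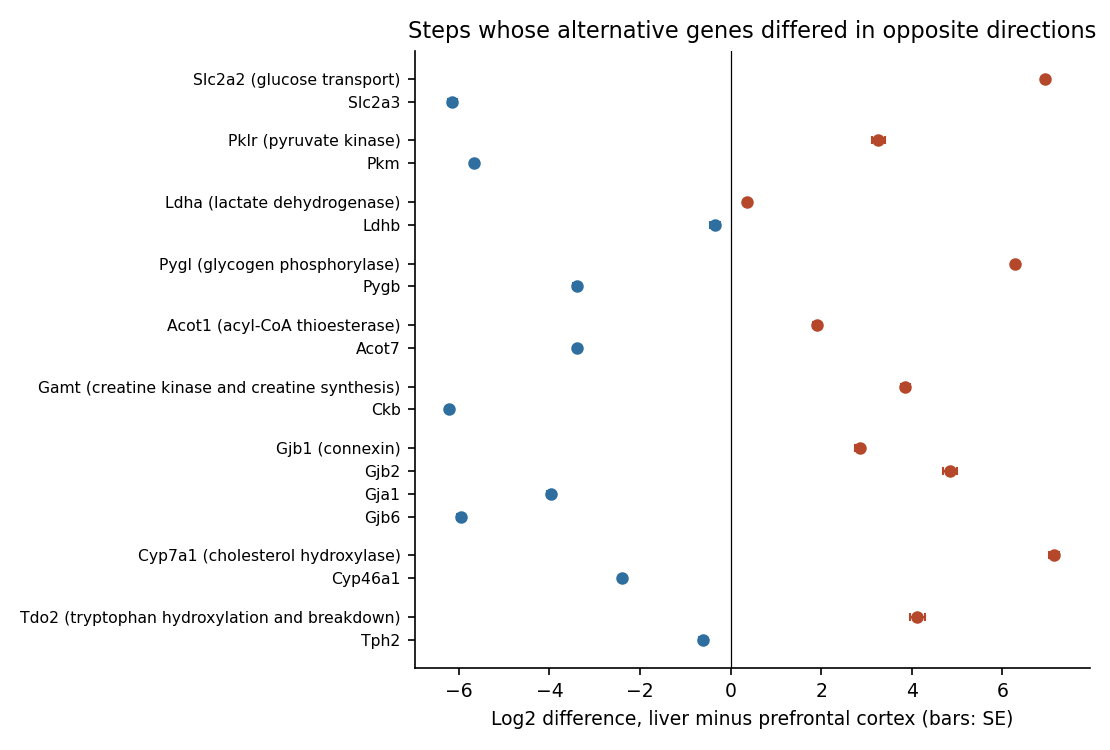
Log2 difference (liver minus PFC, x axis) with standard error of each gene in the 9 steps that had forms in opposite directions. In each step at least 1 form lies right of 0 and at least 1 left of 0, such as Ldha at 0.37 and Ldhb at -0.35. The Ldhb probe was near the floor in both tissues. For forms undetected in 1 tissue, such as Slc2a2 and Tph2, the point is a difference from background and the bound is in the text.

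Acyl-CoA thioesterases split into Acot1 (1.91 ± 0.08) and the brain enzyme Acot7 (-3.38 ± 0.05). The hepatocyte connexins Gjb1 and Gjb2 differed by 2.85 and 4.85, while the astrocyte connexins Gja1 and Gjb6 differed by -3.97 and by at least 43.8-fold. Cholesterol hydroxylation, the entry to bile acids in liver and the exit of cholesterol from brain, was split between Cyp7a1 and Cyp46a1, which was at least 4.17-fold lower in liver. Lactate dehydrogenase had small differences, with Ldha at 0.37 ± 0.06 and Ldhb at -0.35 ± 0.11, and Ldhb read 0.10 with median centring. In creatine metabolism, the synthesis enzyme Gamt differed by 3.86 and the kinase Ckb by -6.22. In tryptophan metabolism, Tdo2 was at least 14.86-fold higher in liver and Tph2, undetected in liver, at least 1.13-fold lower. The Tph2 call was lost with median centring (-0.02, adjusted p = 0.876). Both pairs are different enzymes of a pathway rather than forms of 1 enzyme. Not every family split. All 3 phosphofructokinases were lower in liver, the liver form Pfkl included (-1.93 ± 0.07), with Pfkp at -4.97 and Pfkm at -3.72. Eef1a2, the translation factor of neurons and muscle, was at least 331-fold lower in liver. Its ubiquitous relative Eef1a1 read 14.16, 14.31 and 14.47 in liver and 14.19, 14.32 and 14.44 in PFC, was not called (-0.01 ± 0.06, adjusted p = 0.89) and read 0.44 to 1.32 under the other scalings.

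Functions that both tissues carry out had smaller differences. Of 20 tested genes of the mitochondrial respiratory chain 10 were higher in liver, 5 lower and 5 not called, with a median of 0.15. Sdhc of complex II read 11.24, 11.46 and 11.67 in liver and 9.97, 10.12 and 10.59 in PFC (1.30 ± 0.07), and was higher under every scaling tried. Cox4i1 of complex IV was lower (-0.90 ± 0.06) but read 0.13 with median centring, under which all 20 were higher. Of 12 tested ribosomal protein genes 3 were higher, 5 lower and 4 not called, and with median centring 11 were higher. Rpl4 differed by 0.82 and Rpl37 by -0.97, which became 0.21 with median centring. Genes often used as references were not level. Ywhaz (-2.64 ± 0.06), Tfrc (-2.12 ± 0.11) and Hprt (-1.14 ± 0.07) were lower in liver, and B2m (3.05 ± 0.08) and Gusb (2.28 ± 0.07) higher. Gapdh (-0.88 ± 0.06) and Actb (-0.59 ± 0.07) were lower but read 0.16 and 0.24 with median centring, and the other Actb probes were higher in liver.

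Clock genes vary with the time of day, and the labels give the hour of dosing but not that of tissue collection. Of 14 tested, 5 were higher in liver, 6 lower and 3 not called, with a median of 0.01. This split moved with the scaling, to 7 higher and 5 lower with median centring, 1 higher and 10 lower with normalisation within each tissue and 1 higher and 9 lower in the authors' processed values. Npas2, the partner that can replace Clock in forebrain, was detected on no liver array and was at least 4.28-fold lower in liver. Its partner Arntl read 4.98, 5.97 and 6.87 in liver and 7.07, 7.49 and 7.98 in PFC (-1.66 ± 0.19), and Per1 differed by -1.38. Nr1d1, a repressor of Arntl, differed by 0.94 ± 0.07 and read -0.06 in the authors' processed values. Clock and Per2 were not called, with differences of 0.10 and -0.04.

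Of 15 tested genes of cholesterol synthesis and lipoproteins, 13 were higher in liver and 2 lower, with a median of 2.71. Fdps, of the mevalonate pathway, read 11.14, 11.79 and 12.12 in liver and 8.89, 9.08 and 9.36 in PFC (2.71 ± 0.11). Apoe, the lipoprotein of astrocytes as well as liver, differed by 2.69 ± 0.08. The sterol-sensing factors moved in opposite directions, with Srebf1 at 3.35 and Srebf2 at -0.92 ± 0.08. In the acute phase list, 12 of 14 were higher in liver and 2 were lower. C-reactive protein, Crp, was at least 317-fold higher, and Saa1, serum amyloid A, spread over 8.13, 9.43 and 10.70 in liver and was undetected in PFC. The 2 lower genes were the metallothioneins. Mt1 read 10.49, 11.03 and 12.23 in liver and 13.29, 13.53 and 13.75 in PFC (-2.38 ± 0.18, adjusted p = 7.1e-12), and Mt2 differed by -0.55.

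Detection in 1 tissue only counted 854 probes (1.89% of 45281) that were detected on all 9 liver arrays and no PFC array, and 2443 probes (5.40%) detected on all 10 PFC arrays and no liver array. All 19 arrays detected 12690 probes and none detected 15493 (34.2%). The liver-only probes that carry a symbol belonged to 587 genes and the PFC-only probes to 1576. The PFC-only probes were more numerous, but PFC arrays also detected a larger share of all probes. The lowest detected log2 level was 4.67 to 4.76 on liver arrays and 4.46 to 4.58 on PFC arrays. After quantile normalisation this level follows the share of probes detected, so it is no separate measure of sensitivity to dim signal. Of the PFC-only probes 2396 had a bound. Their bounds had a median of 2.85-fold and reached 509-fold, against a median of 7.45-fold and a highest bound of 1098-fold for liver-only probes. A bound of at least 16-fold was reached by 319 liver-only and 419 PFC-only probes. With liver 4 kept as labelled, the counts were 795 liver-only and 2336 PFC-only probes.

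The same probes were read in the 9 arrays of saline amygdala, which the choice did not use. Of the 2443 PFC-only probes, 2268 (92.8%) were detected on every amygdala array, 6.96% on some and 5 (0.205%) on none. Of the 854 liver-only probes, 687 (80.4%) were detected on no amygdala array, 19.1% on some and 4 (0.468%) on all. The 4 were Cyp26a1, which degrades retinoic acid, the G protein subunit Gna14, Sytl4 of granule secretion and a probe with no gene listed, named here after their values were seen. The 5 included Ovol2, a transcription factor of epithelia, and Gm5771, chosen in the same way.

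Treated arrays of the same tissues were read as well, with all arrays normalised together. On every array of the fenofibrate, tesaglitazar and bezafibrate PFC groups, 95.3%, 96.2% and 96.1% of PFC-only probes were detected, and 0 liver-only probes. On every array of the treated livers, liver-only probes numbered 786 (fenofibrate, 9 arrays), 744 (tesaglitazar, 8 arrays) and 796 (bezafibrate, 9 arrays) of 854. PFC-only probes detected on every treated liver array numbered 8 with fenofibrate, 21 with tesaglitazar and 0 with bezafibrate. With the liver labelled tesaglitazar 6 included, the 21 became 4. The treated livers share their saline controls, and 6 probes were common to both sets, 75.0% of the fenofibrate set and 28.6% of the tesaglitazar set.

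The 6 probes, named after their values were seen, were Cidea, Fabp3, Hebp2, Scn4b, Sdcbp2 and Unc79. Fabp3, the heart form of fatty acid binding protein, read 7.41, 7.99 and 10.37 in fenofibrate livers, 10.11, 12.10 and 12.51 in tesaglitazar livers and 4.15, 4.22 and 4.46 in bezafibrate livers, against 4.23, 4.29 and 4.32 in saline livers. Saline PFC arrays read 10.13, 10.41 and 10.54. The probes were chosen as undetected in saline liver and detected in fenofibrate and tesaglitazar livers, so that difference is given as a description; bezafibrate livers, which the choice did not use, overlapped saline livers. Cidea, a lipid droplet protein, read 6.72, 8.14 and 9.14 in fenofibrate livers, 8.49, 11.01 and 11.76 in tesaglitazar livers and 4.28, 4.94 and 5.27 in bezafibrate livers, against 4.22, 4.35 and 4.56 in saline livers. Its PFC level was dim at 4.98, 5.39 and 5.74. For the channel genes Scn4b and Unc79, treated livers lay below the PFC arrays. The sodium channel subunit Scn4b read 5.01, 5.70 and 6.15 in fenofibrate livers and 6.14, 6.84 and 7.12 in tesaglitazar livers, against 7.99, 8.51 and 9.13 in saline PFC. Unc79, a subunit of the sodium leak channel, read 6.38, 6.72 and 7.21 in fenofibrate livers and 5.94, 6.36 and 7.53 in tesaglitazar livers, against 8.84, 9.14 and 9.34 in saline PFC. No test of drug effects was made here.

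Arrays of a tissue were alike for most probes. Over the 12690 probes detected on all arrays, the SD between arrays had a median of 0.178 in liver and 0.164 in PFC on the log2 scale, and 54.5% of probes had the larger SD in liver. An SD over 0.5 was found for 114 probes in liver and 84 in PFC. The genes with the largest SD in liver included Cish, an inhibitor of cytokine and growth hormone signalling, which read 6.64, 8.54 and 10.56 in liver and 6.60, 6.97 and 7.17 in PFC. The tissues overlap, and the difference was 1.80 ± 0.36 (adjusted p = 5.4e-05). Serpina12, the secreted vaspin, read 7.64 in liver 2 and 10.63 to 11.47 in the other livers, and was detected on no PFC array (at least 73.4-fold higher in liver). Tff3, a trefoil peptide, read 9.13 in the same liver 2 and 4.98 to 6.52 in the others, with a bound of at least 3.02-fold. The Tff3 call was lost in the authors' processed values (0.23, adjusted p = 0.219). Xlr4a, an X-linked gene of a multicopy family, read 6.66, 8.47 and 10.63 in liver and 4.82, 7.59 and 8.96 in PFC, and its call (1.14 ± 0.47, adjusted p = 0.028) was lost without any of 5 arrays, livers 5, 22 and 23 and PFC arrays 5 and 24 (0.85 to 1.03). It was also lost with normalisation within each tissue (0.44, adjusted p = 0.401), in the authors' processed values (0.25, adjusted p = 0.468), with no detection filter (adjusted p = 0.0756) and with trend and robust settings (adjusted p = 0.0573). Gadd45g, a stress-response gene, was not called (-0.56, adjusted p = 0.10), and passed without liver 1 (-0.80, adjusted p = 0.00911) or liver 24 (-0.79, adjusted p = 0.0112). Gadd45g was also called lower with normalisation within each tissue (-1.16, adjusted p = 0.00356) and in the authors' processed values (-0.88, adjusted p = 0.0138). With array weights it passed narrowly (-0.61, adjusted p = 0.0479).

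In PFC the widest range belonged to Ttr, transthyretin, which hepatocytes and the choroid plexus secrete. It read 14.30, 14.44 and 14.67 in liver and 5.798, 7.57 and 11.87 in PFC (6.13 ± 0.59, adjusted p = 6.8e-10). PFC arrays 25, 5, 2 and 21 were the highest, with 11.87, 10.72, 10.19 and 9.29. Of the other 6 choroid plexus markers on the array, Clic6 read 6.13, 5.76 and 5.69 on PFC arrays 25, 5 and 2 and 4.23 to 5.05 on the other PFC arrays. Kl, Otx2 and Sostdc1 were highest on the same 3 arrays, Kl with 5.47, 5.11 and 5.46. Folr1, detected on 1 PFC array, was highest on PFC array 25 with 4.97, and Aqp1 was highest on PFC array 4 with 5.95. The summed level of the 2 tested markers ran from 21480 to 27732 in liver arrays and from 76.1 to 3759.7 in PFC arrays. Without PFC arrays 2, 5 and 25, an alternative chosen after seeing the data, the Ttr difference was 7.34. The part of choroid plexus in other differences was not tested.

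Other PFC genes differed on single arrays. Cdhr1, a cadherin of photoreceptors and olfactory bulb output neurons, read 10.02 on PFC array 4 and 8.06 on PFC array 3, with a median of 6.32. C1ql2, a synaptic organiser known from dentate gyrus mossy fibres, read 9.09 on PFC array 2 and 4.65 to 5.38 on the others. No liver array detected it, and it was at least 1.56-fold lower in liver (adjusted p = 0.016). The call was kept without PFC array 2 (adjusted p = 4.88e-07) and lost with median centring (adjusted p = 0.248), no background correction (0.103), an offset of 50 (0.0738) and arrays numbered 1 to 5 (0.0617). Erdr1 ranged from 8.26 to 11.44 in liver and from 8.12 to 11.66 in PFC and was not called by the unpaired test (-0.44, adjusted p = 0.32). With the array number as a replicate block in the fit, the same probe was called lower in liver (-0.49, adjusted p = 0.000477). Another Erdr1 probe, detected on 8 liver and 10 PFC arrays, was called lower in liver (-1.51 ± 0.37, adjusted p = 0.000525).

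**Figure D5:**
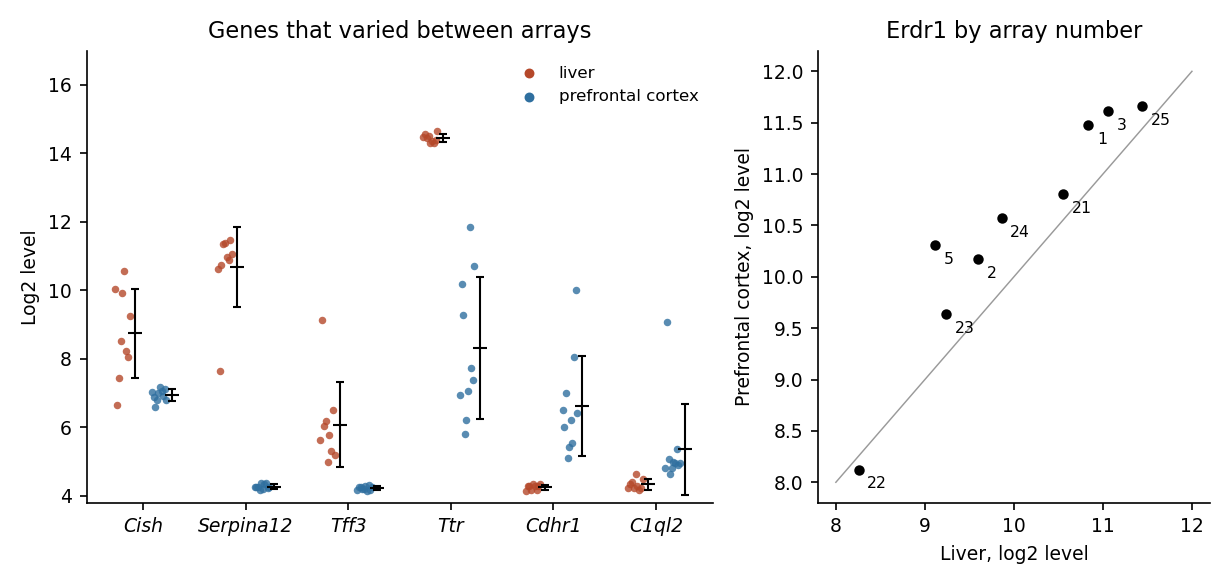
Left, log2 level of Cish, Serpina12, Tff3, Ttr, Cdhr1 and C1ql2 on each liver array and each PFC array, with mean and SD. Right, Erdr1 log2 level in liver (x axis) and PFC (y axis) for the 9 array numbers that both tissues have, with the line of equal levels. Single arrays stand apart for Serpina12 and Tff3 (liver 2) and C1ql2 (PFC array 2). The Erdr1 points run in the direction of the line, and most lie above it, with the higher level in PFC.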

How the data were processed

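Per the file headers, the deposited table gives a raw intensity for each of 45281 probes and a detection p-value against the negative control probes of each array; the submitters' processing notes name lumi, with no version given. Columns were matched to samples by title, and 8 array columns that matched none were not used. Background was corrected from the detection p-values (limma 3.58.1, R 4.3.3, offset 16), and the 19 arrays were quantile normalised and taken to log2. Probes detected on at least 9 arrays were tested with lmFit and eBayes, two-sided, with Benjamini-Hochberg adjustment at 0.05. The tests were checked on simulated data in which few probes changed and no normalisation was made. That check does not cover the choice of scaling. Symbols come from the platform annotation (34885 probes with 1 symbol, 18 with several, 10378 with none). A list takes, for each gene, the tested probe with the highest mean; of 4642 genes with at least 2 tested probes, 518 had probes called in both directions. Of 582 list genes 493 were on the array. Named genes are the 10 largest differences each way, 37 fixed genes, list and form members by size or against their list, the 5 highest probes detected in 1 tissue only and the 5 most variable per tissue. List members named for a small difference or a level in both tissues were chosen after their values were seen. The comparison, the lists and the rule were chosen with earlier results of these data known. Alternatives changed the background step, scaling, filter, model and arrays, and used the authors' deposited log2 values of the series matrix. Figures used matplotlib 3.10.9. The number of arrays limits the precision.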

Additional observations from a re-analysis of the deposited data

Results flagged for a closer look

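Of 224 sets of arrays, 1 tissue and 1 measure each, 22 (9.82%) had 1 array apart from the rest by Dixon's gap test. Chance would set apart about 1 in 20 of independent sets chosen beforehand. These sets share the same arrays and include genes named for their large SD between them, so the share does not measure an excess over chance. The values are log2 levels and carry no explanation. Liver 2 was low for Serpina12 (7.64), Pklr (6.11) and Cyp7b1 (11.73) and high for Tff3 (9.13) and Cx3cr1 (5.64). Liver 1 was low for G6pc (10.63) and Hp (12.78). Liver 24 was high for Hbb-bt (13.07) and low for Pygb (5.39). Acaa1b was high in liver 3 (14.04), Rxrg low in liver 5 (5.26), Vsig4 high in liver 21 (10.50) and Vamp1 low in liver 23 (5.05). In PFC, array 24 had the lowest share of detected probes (44.0%), with low Abat (10.25) and high Sdhc (10.59). PFC array 4 was high for Gfap (8.84) and low for Ywhaz (13.14), and PFC array 21 was low for Npas2 (6.53) and Hbb-bt (11.65). C1ql2 was high on PFC array 2 (9.09) and Mef2c on PFC array 1 (12.78).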

How the results depend on the processing

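The count of called probes (19173) stayed between 17815 and 20487 under the alternatives, except with no detection filter (22733 of all probes) and when testing only probes detected on all 19 arrays, which are fewer (11126, with 5218 at least 2-fold apart). The count at least 2-fold apart (9995) fell to 5689 with no background correction and to 5553 in the authors' processed values, and was 7343 with an offset of 50; the cause was not tested. Leaving out each array in turn gave 18724 to 19422 called and 9896 to 10082 at least 2-fold apart. With the array number as a replicate block the counts were 19211 and 9993. Of the genes rechecked under the alternatives, only Erdr1 then changed its call (-0.49, adjusted p = 0.000477). Same-numbered arrays correlated at -0.105 to 0.318 in their deviations, 5 of 9 pairs over 0.1. The median was 0.115, against -0.01 for arrays of different numbers. For Erdr1 alone, levels by number gave Pearson's r of 0.944 in saline arrays, as described below. The labels do not say that a number stands for a mouse, so no pairing is claimed. Arrays numbered 1 to 5 alone gave 18609 and 10203, and 21 to 25 alone 17815 and 9936. Of liver-only probes, 85.4% were on no amygdala array with detection p under 0.01; of PFC-only probes, 93.9% were on every amygdala array at that threshold and 76.5% where at least 50% of a tissue's arrays had to detect a probe. The direction turned for these genes. With median centring: Hba-a1 0.92, Actb 0.24, Gapdh 0.16, Bsn 0.13, Rpl37 0.21, Cox4i1 0.13, Ldhb 0.10, Eef1a1 1.32 and the reference gene median 0.16 (0.093 over all its probes). With normalisation within each tissue: Rxrg -0.14, Slc1a2 -0.015, C1qa -0.26, C1qb -0.37, C1qc -0.12, Ppargc1b -0.11, Med1 -0.64, Pdk4 -0.54, Acot2 -0.27, Tubb3 -0.22 and Eef1a1 0.47. In the authors' values: Rxrg -0.21, C1qa -0.22, C1qb -0.29, C1qc -0.090, Ppargc1b -0.079, Ncoa2 -0.13, Med1 -0.41, Pdk4 -0.32, Acot2 -0.24, Tubb3 -0.23, Nr1d1 -0.062 and Eef1a1 0.44. Acot2 also read -0.34 in arrays 1 to 5. Array signal near the floor limits the genes undetected in 1 tissue, whose differences are bounds.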

Other observations

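Erdr1, a gene at the pseudoautosomal end of the sex chromosomes whose copies and probes are hard to tell apart, was chosen after its values were seen, and the values are those of the probe detected on all 19 arrays. Over the 9 numbers that have both a saline liver and a saline PFC array, its liver and PFC levels gave Pearson's r of 0.944 (exact permutation p = 5.24e-05, adjusted 0.000262 over 5 genes) and Spearman's rho of 0.95 (p = 0.000353), and r was 0.925 without the 2 numbers farthest from the median. In treated mice, as deviations from group means over 26 numbers, r was 0.862 (permutation p = 1e-05, the smallest that 100000 permutations can give, adjusted 5e-05), rho was 0.891, and r was 0.826 without the 2 farthest. Xlr4a gave r of 0.241 in saline arrays (exact permutation p = 0.531) and 0.599 in treated arrays (permutation p = 0.00027, adjusted 0.000675; rho 0.602; 0.516 without the 2 farthest). For Ttr, Cish and Gadd45g the adjusted permutation p was at least 0.257 in both sets.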
